A study of Rattus norvegicus with 6 samples.

Results

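The liver genes described here are 8 that are known to follow the secretion pattern of growth hormone: Bcl6, A1bg, Prlr, Cux2, Trim24, Hsd3b5, Srd5a1 and Onecut1. They were taken by name, and 6 of the 8 had probes that could be named through their RefSeq accession, 11 probes in all, among 15284 genes named on the array. Cux2 and Trim24 had no such probe and have no value here. The 6 measured genes were all among the 11094 genes tested, and 10 of their 11 probes were well above background on all 6 arrays.

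The pituitary of male rats releases growth hormone in separated pulses, while that of females releases it more steadily. Hepatocytes read the difference through the growth hormone receptor, the kinase Jak2 and the transcription factor Stat5b, and many liver genes are therefore expressed at different levels in the sexes. Onecut1, also called HNF6, and Cux2 are homeodomain transcription factors with more transcript in female rat liver, and Bcl6 is a zinc finger repressor with more in male liver. A1bg, a plasma glycoprotein, Prlr, the prolactin receptor, and Srd5a1, a steroid 5-alpha-reductase, are higher in livers of female rats. Hsd3b5, of the 3-beta-hydroxysteroid dehydrogenase family, is higher in males, and Trim24 is a nuclear receptor cofactor whose sex difference is known from mouse.

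Total RNA from the livers of 6 male Sprague-Dawley (Crl:CD(SD)) rats, an outbred stock bought at 5 weeks of age, was labelled with Cy3 and measured on one-colour arrays. The treated group was 3 rats that received tert-butyl alcohol (tBA), a small tertiary alcohol, at 1000 mg/kg/day, and the vehicle group was 3 rats without it. The vehicle was water by the sample labels and corn oil by the treatment protocol, and dosing lasted 28 days by the series text and 9 weeks by the protocol. The time of day of sampling was not given in the sources used here, and no female liver was measured.

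Each array had 61.5% to 66.9% of its 61657 probes well above background and 0 saturated spots. tBA replicates 2 and 3 were on slide 2, and tBA replicate 1 shared slide 1 with all vehicle arrays, each slide scanned on its own day. A comparison within slide 1 is therefore 3 vehicle arrays against 1 tBA array. The 8 hepatocyte markers, among them Alb and Apob, summed to 4569 to 4791 times the array's 75th percentile in tBA livers and 4532 to 4901 times in vehicle livers. Of 12 marker lists, 2 had sums that did not overlap between the groups: B cell markers at 1.93 to 2.34 in tBA livers against 2.52 to 2.64 in vehicle livers, and endothelial markers at 50.8 to 53.2 against 43.2 to 48.7. Among all genes tested, taken singly, the groups did not overlap in 24.2%. In log2 difference, tBA minus vehicle, Blk of the B cell list (0.004) and Cdh5 of the endothelial list (-0.04) did not share their list's direction. The part of either list in the results was not tested. In whole liver, fewer cells of a type and less RNA per cell cannot be told apart.

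The level of a gene below is the log2 of the processed signal of its brightest probe minus the array's 75th percentile, so that 0 is that percentile, and differences are tBA minus vehicle on this scale. None of the 6 measured genes passed an adjusted p of 0.05 in limma, where 4 of 11094 genes (0.0361%) passed. At an unadjusted p under 0.05, 2 of the 6, Onecut1 and Srd5a1, were counted, both lower with tBA, beside 1674 genes (15.1%) of all tested and 826 (7.45%) on the lower side. In the same 2 genes the 3 tBA values lay below the 3 vehicle values, which held for 1258 genes (11.3%) of all; groups were apart in either direction in 2681 (24.2%). The point estimate was lower with tBA in 4 of the 6, the female-biased Onecut1, A1bg, Srd5a1 and Prlr, of which Prlr turned sign when certain arrays were left out, and higher in Bcl6 and Hsd3b5. The median difference of the 6 was -0.77, and that of all genes tested was 0.0032. With 3 arrays in each group the smallest two-sided p of an exact permutation test is 0.1, and the number of arrays limited the precision.

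**Figure D1:**
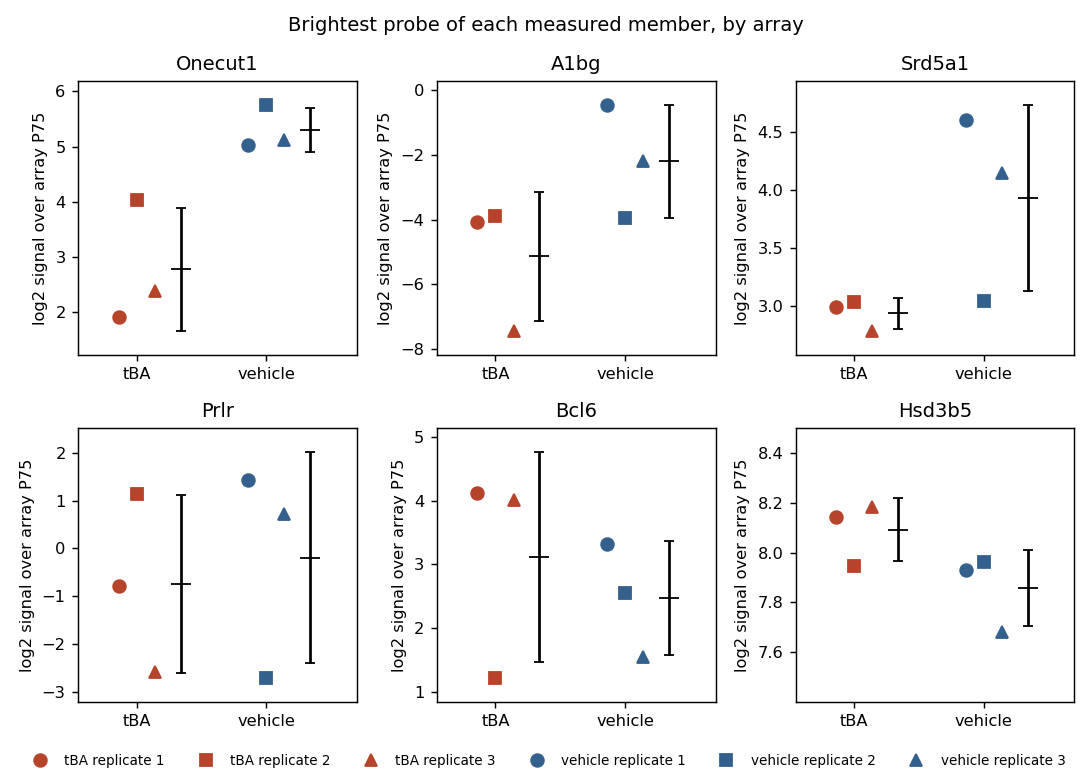
Level of each measured gene (log2 signal over the array's 75th percentile, vertical axis, scaled per panel) in 3 tBA and 3 vehicle livers; symbols are arrays and bars are the mean with 1 SD. The groups are apart in Onecut1 and, by a narrow gap, in Srd5a1, at tBA replicate 2 and vehicle replicate 2, and they overlap in the other 4.

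Of the 2 transcription factors measured, Onecut1 had groups that did not overlap. It activates the female-predominant Cyp2c12 gene in rat liver and also takes part in the development of bile ducts. Its level was 1.91, 4.03 and 2.38 in tBA livers 1 to 3, against 5.03, 5.76 and 5.12 in vehicle livers 1 to 3. All tBA values lay below the vehicle range, with tBA replicate 2 nearest to it. The mean was 2.77 ± 1.11 in tBA livers and 5.30 ± 0.40 in vehicle livers (SD, n = 3 each), a log2 difference of -2.53 (SE 0.55, 95% interval -3.87 to -1.19, unadjusted p = 0.0034, limma adjusted p = 0.199). In linear signal this is 5.77-fold more in vehicle livers. The exact permutation p was 0.1, the smallest it can be.

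The other Onecut1 probe, less bright, gave a difference of -2.49, and its tBA values of 0.73, 2.82 and 1.22 lay again below the vehicle values of 3.82, 4.47 and 3.95. The offset between both probes was 1.16 to 1.29 on every array, and they ranked the 6 livers alike. Bile duct markers summed to 1.5 to 2.37 in tBA livers and 1.76 to 1.99 in vehicle livers, which overlap. Within slide 1 the Onecut1 difference was -3.39 (limma adjusted p = 0.396), and leaving out each array in turn gave -3.16 to -2.10.

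Bcl6 represses targets that Stat5 can activate, and female-biased genes are among those it binds in male mouse liver. Its level was 4.12, 1.22 and 4.02 in tBA livers, against 3.32, 2.55 and 1.54 in vehicle livers. tBA replicate 2 had the lowest level of the 6 and tBA replicates 1 and 3 the highest, so the vehicle group lay inside the range of the tBA group. The mean was 3.12 ± 1.65 in tBA livers and 2.47 ± 0.89 in vehicle livers (SD, n = 3 each), a difference of 0.65 (SE 0.87, interval -1.46 to 2.75, limma adjusted p = 0.733). The dimmer probe gave 0.46. Leaving out any array but vehicle replicate 2 moved its size by over 1.5 times. The difference was 0.14, 1.60 and 0.20 without tBA replicates 1 to 3 in turn, and 1.07, 0.68 and 0.18 without vehicle replicates 1 to 3. Within slide 1, which holds tBA replicate 1 alone of its group, it was 1.65 (limma adjusted p = 0.714).

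A1bg encodes a plasma protein of the immunoglobulin superfamily and had 1 probe, A_44_P360720. Its level was -4.08, -3.90 and -7.44 in tBA livers, against -0.45, -3.96 and -2.19 in vehicle livers. The groups overlap because vehicle replicate 2 lay with tBA replicates 1 and 2. On tBA replicate 3 the probe was not well above background, so that value is only a bound, and the lowest signal well above background on that array was -5.41. The difference was -2.94 (SE 1.23, interval -5.92 to 0.04, limma adjusted p = 0.335). It was -2.17 with 1 floor for all arrays, -1.13 with normexp background correction and -1.88 within slide 1, and without each array in turn it ran between -3.82 without vehicle replicate 2 and -1.79 without tBA replicate 3.

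Of the 8 genes, 6 had a start site in RefSeq's promoter table of the GRCr8 assembly, with 7 promoters of 250 bases before the start and 50 after it. On both strands 3 motifs were searched: TTCNNNGAA, the letters that Stat5 dimers recognise; ATTGAT, a core of Onecut sites; and TTCCTAGAA, a Bcl6 site that is 1 case of the Stat5 letters. The first is in 8.87% of all 33469 promoters of this length, the second in 8.06%, both in 0.908% and the third in 0.376%. Among the 7 promoters, 2 held the first, 2 the second and 1 the third. The promoters of A1bg (chr7:94387447-94387746, minus strand) and the second of Prlr (chr2:60909409-60909708, plus strand) are shown because they belong to measured genes and hold a match, in capitals.
A1bg: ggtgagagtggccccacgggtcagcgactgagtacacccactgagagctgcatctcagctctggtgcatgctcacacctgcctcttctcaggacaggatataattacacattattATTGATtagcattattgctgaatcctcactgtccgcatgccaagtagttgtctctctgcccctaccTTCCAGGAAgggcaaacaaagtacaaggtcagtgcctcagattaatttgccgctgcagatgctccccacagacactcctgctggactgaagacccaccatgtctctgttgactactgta
Prlr second promoter: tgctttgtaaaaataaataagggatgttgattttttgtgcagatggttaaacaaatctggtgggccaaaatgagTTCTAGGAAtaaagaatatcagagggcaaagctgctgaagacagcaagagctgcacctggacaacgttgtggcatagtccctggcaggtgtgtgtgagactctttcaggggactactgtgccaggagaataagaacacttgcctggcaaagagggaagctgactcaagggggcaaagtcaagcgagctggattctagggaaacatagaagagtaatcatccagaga
In A1bg the match ATTGAT starts 135 bases before the start site and TTCCAGGAA 69 bases before it, and ATTGAT there shares no base with the other match. In Prlr the match TTCTAGGAA, 176 bases before the start, is TTCCTAGAA read on the other strand. Trim24 held ATCAAT, the second motif on the other strand, 189 bases before its start. Such matches are letters in a window, and binding was not measured.

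Prlr binds prolactin and, through Jak2, also signals to Stat5. Its level was -0.79, 1.15 and -2.59 in tBA livers, against 1.42, -2.72 and 0.71 in vehicle livers. The lowest and the highest of the 6 values both fell in the vehicle group, at replicates 2 and 1. The difference was -0.55 with an interval of -3.80 to 2.70 (SE 1.34, limma adjusted p = 0.864). Its sign turned without vehicle replicate 1, at 0.26, and without tBA replicate 3, at 0.37, and within slide 1 it was -0.60.

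Srd5a1 reduces testosterone to dihydrotestosterone and clears other steroids in the liver. Its level was 2.99, 3.04 and 2.79 in tBA livers, against 4.61, 3.04 and 4.15 in vehicle livers. The 3 tBA livers lay close together, and vehicle replicate 2 had almost their level while vehicle replicates 1 and 3 were higher. The mean was 2.94 ± 0.13 in tBA livers and 3.93 ± 0.80 in vehicle livers (SD, n = 3 each), a difference of -0.99 (SE 0.38, interval -1.92 to -0.07, unadjusted p = 0.0395, limma adjusted p = 0.316). On the dimmer probe the values were 0.55, 1.21 and 0.86 in tBA livers, against 2.38, 0.80 and 2.14 in vehicle livers. There the groups overlap, with a difference of -0.90. Within slide 1 the difference was -0.94, and without vehicle replicate 1 it was -0.66.

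Hsd3b5 acts on steroids in hepatocytes and had the tightest values of the 6 genes. Its level was 8.14, 7.95 and 8.18 in tBA livers, against 7.93, 7.96 and 7.68 in vehicle livers. The groups overlap at tBA replicate 2 and vehicle replicate 2. The difference was 0.23 with an interval of -0.06 to 0.52 (SE 0.12, limma adjusted p = 0.396), and within slide 1 it was 0.29. Scaling moved the Hsd3b5 difference to 0.11 with quantile normalization and to 0.31 with the array median. Its other probes gave 0.15 and 0.07. Genes of this family are alike in sequence, so a probe may also read a relative, and which one each probe reads was not tested here.

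**Figure D2:**
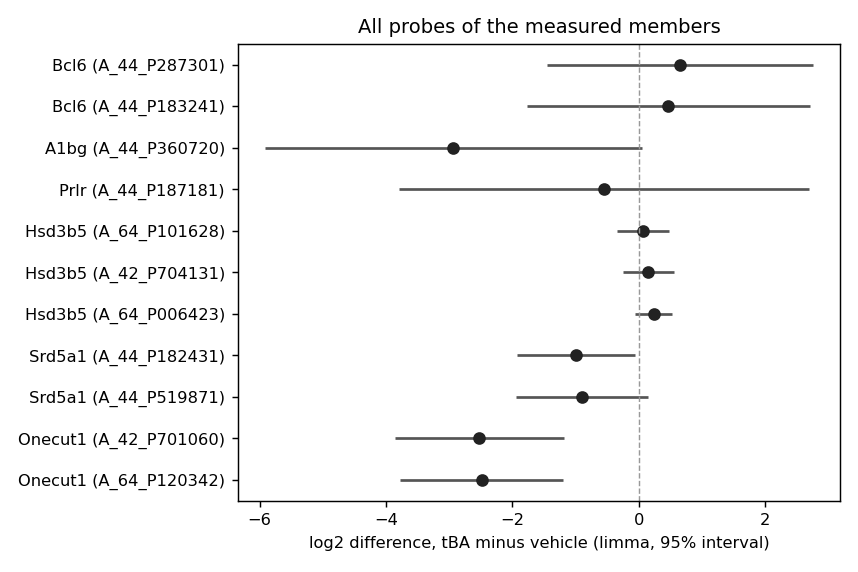
Difference, tBA minus vehicle, on the log2 scale (horizontal axis) for each of the 11 probes of the measured genes, with limma's 95% interval (line). Probes of 1 gene share the sign of their difference; the intervals of both Onecut1 probes and of the brighter Srd5a1 probe lie below 0, and those of the other 8 probes include 0.

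Animals of 1 group differed widely in most of these genes. The SD of Bcl6 was 1.65 in tBA livers and 0.89 in vehicle livers, above that of 99.7% and 98.4% of the genes tested. A1bg and Prlr lay above 99.8% to 99.9% of genes in both groups, with SDs of 1.99 and 1.87 in tBA livers and 1.75 and 2.21 in vehicle livers. The median SD over all genes was 0.150 in tBA livers and 0.135 in vehicle livers. Onecut1, at 1.11 in tBA livers and 0.40 in vehicle livers, was above 99.3% and 89.7% of genes. Srd5a1 was spread among vehicle livers, above 97.9% of genes, and near the middle of all genes among tBA livers, at 44.1%. Hsd3b5 was near the middle in both, at 41.4% and 56.1%. The A1bg value that was not well above background enters its tBA SD.

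**Figure D3:**
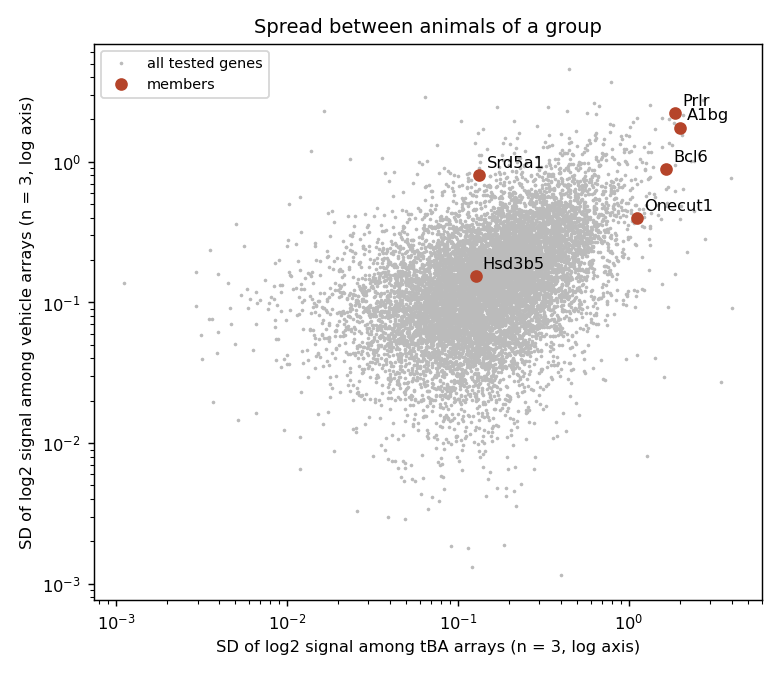
SD of the log2 level among 3 tBA livers (horizontal, log axis) and among 3 vehicle livers (vertical, log axis) for 11094 genes in grey and the 6 measured genes in red. Bcl6, A1bg and Prlr sit at the upper right, with SDs of 0.89 to 2.21, and Hsd3b5 sits in the dense middle at 0.13 and 0.15.

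Read liver by liver, A1bg, Prlr and Srd5a1 ranked the animals alike within each group on their brightest probes. From the highest, the order was replicate 2, 1 and 3 in tBA livers and 1, 3 and 2 in vehicle livers. The tBA values of that Srd5a1 probe spanned only 0.25. On the dimmer Srd5a1 probe the order was 2, 3 and 1 in tBA livers, and that in vehicle livers was the same. The A1bg value of tBA replicate 3 is only a bound. Onecut1, Bcl6 and Hsd3b5 each had another order. tBA replicate 2 combined the lowest Bcl6 of the 6 livers with the highest Onecut1, A1bg, Prlr and Srd5a1 among the tBA livers. Vehicle replicate 2 had the highest Onecut1 of the 6 and the lowest Prlr, A1bg and Srd5a1 of its group. Cyp2c12, the steroid sulphate hydroxylase typical of female rats and a target of Onecut1, was at 4.71, 4.0 and 3.63 in tBA livers and at 3.32, 5.50 and 3.63 in vehicle livers. Its highest level was thus in vehicle replicate 2, while its group difference was -0.04 (SE 0.61, limma adjusted p = 0.980). Its lowest level was in vehicle replicate 1, where Onecut1 was at 5.03. In tBA replicate 1, with the lowest Onecut1 of the 6, its level of 4.71 was exceeded only in vehicle replicate 2. Cyp2c11, the main male-specific cytochrome of rat liver, was at 8.49, 7.42 and 8.34 in tBA livers and at 8.53, 8.47 and 8.18 in vehicle livers, lowest in tBA replicate 2, with a difference of -0.31 (limma adjusted p = 0.617).

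**Figure D4:**
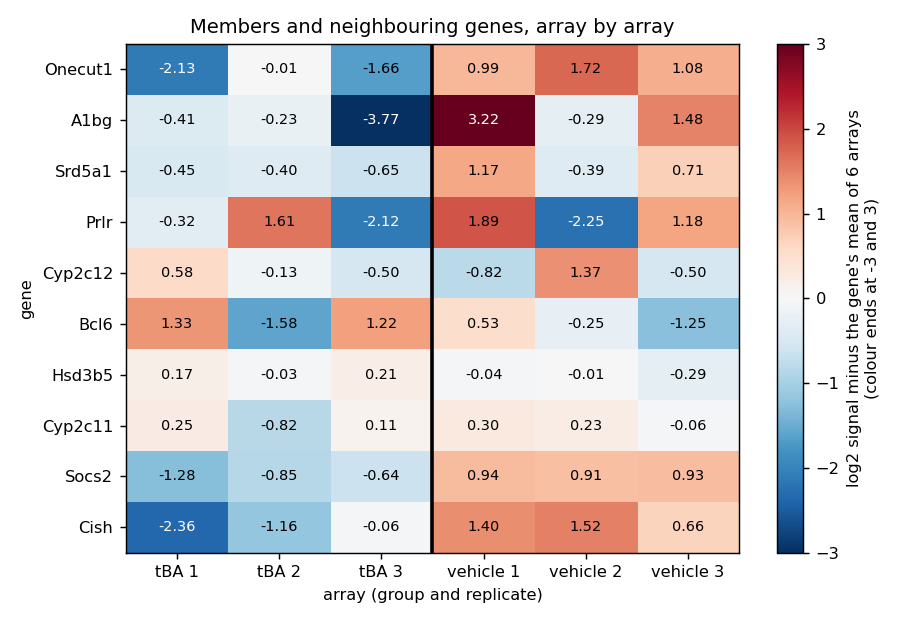
Log2 level of each gene minus its own mean over the 6 arrays (colour and number) for the 6 measured genes, Cyp2c12, Cyp2c11, Socs2 and Cish; columns are tBA livers 1 to 3, then vehicle livers 1 to 3. Onecut1 is at -2.13, -0.01 and -1.66 in tBA livers and between 0.99 and 1.72 in vehicle livers, while Prlr and Bcl6 have both signs within each group.

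Around these genes stand others that depend on the hormone's pattern. Each list count below at an unadjusted p under 0.05 in limma stands beside 15.1% of all genes tested, with 7.45% on the lower side. Of 13 genes listed as female-biased in rat liver, 11 were tested and 0 passed in limma, with 2 higher and 3 lower at an unadjusted p under 0.05. The 2 without a named probe were Cux2 and Trim24, and the sex difference of Trim24 is known from mouse. By point estimate 5 of the 11 tested were higher and 6 lower. Their median was -0.04, or 0.11 over the 7 that are not among the 8 genes. Such counts shift with the scaling near 0, since the median of all genes was 0.076 with each array's median as the scale and -0.020 with the percentile over detected probes. Cyp2c7, a retinoid-oxidising cytochrome, was at 0.02 (limma adjusted p = 0.955), Tox, a nuclear HMG-box factor, at 0.11 (0.563), and Cd36, a fatty acid transporter, at 1.01 (SE 0.38, limma adjusted p = 0.308). The 6 probes of Cyp2c7 gave -0.08 to 0.02. Sult2a2, a hydroxysteroid sulfotransferase, was singled out after its values were seen: it was at -3.12, -1.87 and -2.72 in tBA livers and at -4.58, -5.82 and -3.74 in vehicle livers, with 2 of the 3 vehicle arrays well above background and a difference of 2.14 (limma adjusted p = 0.227). The value of vehicle replicate 2, not well above background, is only a bound, and the difference was 1.03 with normexp and 1.59 without that array. The list held genes on both sides of 0.

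Of 13 male-biased genes, all 13 were tested and 0 passed in limma. At an unadjusted p under 0.05 there were 2, both lower, beside 15.1% of all genes tested. By point estimate 7 were higher and 6 lower, and the median was 0.21, or 0.072 over the 12 without Hsd3b5. Cyp2c13 and Cyp2a2, cytochromes of male rat liver, were at -0.07 (limma adjusted p = 0.883) and 0.33 (0.426). Car3, a carbonic anhydrase abundant in male rat liver and singled out after its values were seen, was at 2.88, 0.81 and 2.45 in tBA livers against 4.24, 4.71 and 4.29 in vehicle livers, a difference of -2.37 (limma adjusted p = 0.200), or -1.53 within slide 1. Its groups do not overlap, and tBA replicate 2 was again the lowest.

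Of 15 genes of growth hormone signalling and feedback, 14 were tested and 0 passed in limma, with 3 at an unadjusted p under 0.05, all lower. By point estimate 4 were higher and 10 lower, and the median was -0.13. Socs2 and Cish, feedback inhibitors that the hormone induces through Stat5, were lowest. Socs2 was at -0.86, -0.43 and -0.22 in tBA livers against 1.36, 1.32 and 1.34 in vehicle livers, a difference of -1.85 (SE 0.17, limma adjusted p = 0.0607 over genes and 0.0306 over probes). Cish was at -1.85, -0.65 and 0.45 in tBA livers against 1.91, 2.03 and 1.18 in vehicle livers, a difference of -2.39 (SE 0.58, limma adjusted p = 0.213). Its dimmer probe gave a smaller difference of -1.20. On the brightest probes of Socs2 and Cish, as in Onecut1, the groups did not overlap, and tBA replicate 1 was lowest. The receptor Ghr was at -0.20, Jak2 at -0.21, Stat5b at 0.17 and Igf1, the circulating growth factor made in response to the hormone, at -0.10, with limma adjusted p of 0.356 to 0.634. Probes of 1 gene ran from -0.20 to 0.14 in Ghr, -0.21 to -0.07 in Jak2 and -0.41 to -0.10 in Igf1.

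Relatives and cofactors of the regulators gave 5 tested genes of 10 listed, of which 0 passed in limma and 0 had an unadjusted p under 0.05. By point estimate 2 were higher and 3 lower, and the median was -0.003. Cux1 and Onecut2 had no named probe. Bcl6b, a close relative of Bcl6, was at -0.003, and Trim28, a corepressor related to Trim24, at -0.06, with limma adjusted p of 0.994 and 0.840.

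Of 12 liver-enriched transcription factors, all were tested and 0 passed in limma, with 2 at an unadjusted p under 0.05, both lower. By point estimate 5 were higher and 7 lower, and the median was -0.07. Hnf4a was at 0.21, Foxa2 at -0.31 and Cebpb at 0.26, with limma adjusted p of 0.413 to 0.737. Leaving out 1 array moved Cebpb between 0.043, without tBA replicate 2, and 0.63, without tBA replicate 3. Dbp, a clock-controlled factor singled out after its values were seen, was at 3.21, 2.55 and 2.62 in tBA livers against 4.59, 5.82 and 5.55 in vehicle livers. Its difference of -2.53 (SE 0.35, limma adjusted p = 0.129) was as large as that of Onecut1, and its 4 probes gave -2.94 to -2.53. Whether time of day played a part in any of these values was not tested.

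Of 13 steroid-handling enzymes and receptors, 12 were tested and 0 passed in limma, with 1 higher and 3 lower at an unadjusted p under 0.05. By point estimate 6 were higher and 6 lower, and the median was -0.04. Akr1d1, the 5-beta-reductase that acts on many of the same steroids as Srd5a1, was at 5.09, 4.96 and 5.11 in tBA livers against 4.44, 4.52 and 4.34 in vehicle livers, a difference of 0.62 (SE 0.09, limma adjusted p = 0.150). The groups of Akr1d1 did not overlap, and its 3 probes gave 0.59 to 0.78. Srd5a2 and Srd5a3, relatives of Srd5a1, were at 0.01 and -0.36, and the Hsd3b5 relatives Hsd3b2 and Hsd3b7 at 0.01 and -0.09, with limma adjusted p of 0.291 to 0.987. The other probes of Srd5a2 and Hsd3b2 gave 0.18 and -0.36. The oestrogen receptor Esr1 was at -0.90, with a limma adjusted p of 0.358, but at -0.45 without tBA replicate 3 and -0.23 with normexp. Hsd17b2, which oxidises oestradiol and testosterone and was singled out after its values were seen, was at 5.80, 3.40 and 4.99 in tBA livers against 6.54, 7.24 and 7.33 in vehicle livers, a difference of -2.30 (limma adjusted p = 0.223). Within slide 1 that difference was -1.23.

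**Figure D5:**
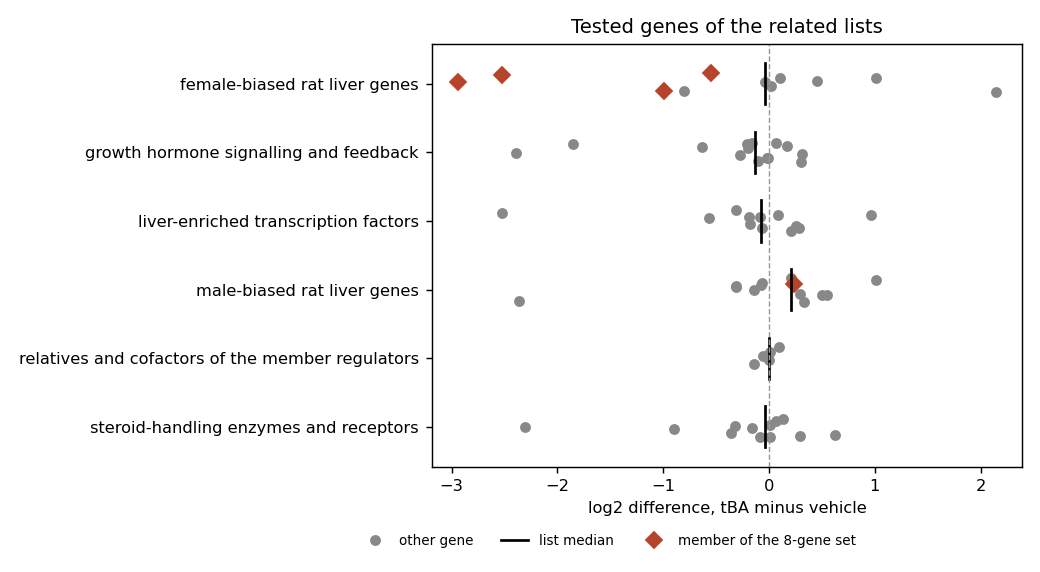
Difference, tBA minus vehicle, on the log2 scale (horizontal axis) of each tested gene in 6 related lists (rows), with list medians as black bars. Red diamonds are Onecut1, A1bg, Srd5a1, Prlr and Hsd3b5, while Bcl6 is in none of the lists and is not drawn. List medians lie between -0.13 and 0.21, while Onecut1 and A1bg lie at -2.53 and -2.94.

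Genes whose 6 values were nearest to those of Onecut1, each gene centred on its own mean, were Ccdc77, Abcg8 and Rtn4ip1, with root mean square differences of 0.568, 0.640 and 0.655 against a median of 1.45 over all genes. Ccdc77 and Abcg8 were well above background on 0 of the 3 tBA arrays, so only Rtn4ip1 was measured on all 6. Rtn4ip1 was at -3.45, -2.86 and -3.04 in tBA livers and at -0.05, -0.62 and -0.23 in vehicle livers (difference -2.81, limma adjusted p = 0.0277). It ranked the tBA livers as Onecut1 did and the vehicle livers in the reverse order. For Srd5a1 the nearest genes were Pde5a, Fgf21 and Tmem38a, at 0.173, 0.243 and 0.262 against a median of 0.711. Of these, Fgf21 was well above background on all tBA arrays, Tmem38a on 1 and Pde5a on 0. Fgf21, a hormone secreted by the liver, was at 0.47, 0.80 and 0.56 in tBA livers and at 1.89, 1.03 and 1.56 in vehicle livers. Like Srd5a1 it was lowest among vehicle livers in replicate 2, but it was picked for its likeness to those same values.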

How the data were processed

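Liver RNA of 3 tBA-treated and 3 vehicle-treated male rats was measured on Agilent one-colour arrays, 1 array an animal. The authors took the intensity values from scans in Agilent Feature Extraction 10.7.1.1, with an rn4 annotation, per the file headers; the submitters' processing notes name version 10.7. The deposited series table holds a linear ratio, the processed signal over 1 divisor per array (570.0 to 639.5, close to its 75th percentile), uncentred and with higher values for more signal; its column medians were 0.0981, 0.0949 and 0.0952 for tBA and 0.1019, 0.1020 and 0.0994 for vehicle replicates 1 to 3.

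Control spots were dropped, and the 3 to 16 spots an array that were marked as outliers counted as missing. From each log2 signal the array's log2 75th percentile was subtracted. Probes were tested where every array of 1 group or both was well above background, 37647 in all, of which 43 passed (0.114%). Differences came from limma 3.58.1 (R 4.3.3; lmFit, eBayes) without covariates, with Benjamini-Hochberg adjustment. A gene was read from its brightest tested probe, with p adjusted over genes. The fit was tested on simulated data.

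Of the probes, 27460 matched 15284 symbols by accession in RefSeq's GRCr8 table; array coordinates were not used, since the builds differ. The 8 genes and the lists were chosen with earlier results of these data known. Genes named from lists were set by name whatever their values, plus any list gene that passed; those singled out later are said to be so. Values of 2 list genes under that rule are not reported here, though both stay in the fit and the list counts. The genes most like a member were taken for the 2 members with the smallest unadjusted p, passing over locus numbers. Alternatives changed the background correction, scaling, source table, filter, floor, spread model, slide, replicate block, probes of a gene and arrays. Normexp (offset 50) used the median spot signal. Leaving outlier-marked spots out of the percentile was settled after both counts of passing probes were seen, 43 without those spots and 42 with them. The percentile over all spots was then added as an alternative. Tables and figures were made with Python 3.11.15, numpy 2.4.6, pandas 2.3.3 and matplotlib 3.10.9.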

Additional observations from a re-analysis of the deposited data

How the results depend on the processing

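Over 21 alternatives none of the 6 measured genes passed an adjusted p of 0.05 in limma. Onecut1 stayed between -3.39 and -2.10 with adjusted p of 0.127 to 0.522. On their brightest probes A1bg and Srd5a1 stayed below 0 and Bcl6 and Hsd3b5 above 0, while the other Bcl6 probe was below 0 under 1 alternative (-0.16) and the other Hsd3b5 probes under 1 and 2 (lowest -0.025 and -0.10); A1bg had no value with probes above background on all 6 arrays. Leaving out each array in turn gave -3.82 to -1.79 for A1bg, 0.14 to 1.60 for Bcl6, 0.14 to 0.31 for Hsd3b5, -1.44 to -0.66 for Srd5a1 and -1.81 to 0.37 for Prlr, the 1 member whose sign turned, and 6 to 45 passing probes and 0 to 4 passing genes. Of 712 values of single genes, 50 turned sign.

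Passing probes, 43 in the fit reported, numbered 18 with no filter, 0 with probes above background on all 6 arrays (5637 at an unadjusted p under 0.05), 65 with 1 floor, 68 with an intensity trend, 20 with slide as a fixed block, 0 within slide 1 (2956 unadjusted) and 42 with the percentile over all spots. Passing genes, 4 in that fit, numbered 0 with no filter (1440 unadjusted), 2 with the stricter filter, 1 with slide as a block, 0 within slide 1 (806 unadjusted) and 4 with the percentile over all spots. Without tBA replicate 2, 6 probes and 0 genes passed (1097 genes unadjusted). Without tBA replicate 3 it was 14 and 0 (1376), without vehicle replicate 1 it was 22 and 0 (1255), without vehicle replicate 2 it was 38 and 0 (1229), and without vehicle replicate 3 it was 25 and 1. Of the signalling list 1 gene, Socs2, passed with normexp (adjusted p = 0.0483), with the intensity trend (0.0325) and without tBA replicate 1 (0.0470). The causes were not tested. The same-numbered tBA and vehicle arrays correlated at -0.06, -0.06 and 0.01 in their deviations from the group mean, against -0.06 to 0.11 for arrays of unlike number. Deviations from means of 3 arrays cannot show a weak pairing, so whether the numbers pair the animals was not settled. With the replicate block 6 probes, 0 genes (1337 unadjusted) and 0 members passed.

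Of the genes that kept their sign, these moved by over 1.5 times, in addition to those in the report: Ghr to -0.0068 with the mean of probes, Jak2 to -0.14 with the array median, Srd5a3 to -0.16 and Hnf4a to 0.34 within slide 1, and Tox to 0.18 with the array median and 0.047 within slide 1. These differences, tBA minus vehicle, turned sign, none of which passed the test. With slide as a fixed block, and equally within slide 1, Cyp2c11 was at 0.093, Cyp2a2 at -0.015, Cyp2c12 at 0.56, Igf1 at 0.051, Bcl6b at 0.13, Trim28 at 0.057, Hsd3b2 at -0.0080 and Srd5a2 at -0.11. With the array median, Cyp2c13 was at 0.00091, Cyp2c12 at 0.037, Bcl6b at 0.070 and Trim28 at 0.017; with normexp, Cyp2c12 at 0.047 and Bcl6b at 0.014. With the percentile over detected probes, Cyp2c7 was at -0.0036, Hsd3b2 at -0.014 and Srd5a2 at -0.015; with quantile normalization, Cyp2c7 at -0.037 and Hsd3b2 at -0.038; with the mean of probes, Cyp2c7 at -0.028 and Hsd3b2 at -0.18. Leaving out each array gave -0.51 to 0.021 for Cyp2c11, -0.26 to 0.067 for Cyp2c13, -0.45 to 0.64 for Cyp2c12, -0.12 to 0.091 for Cyp2c7, -0.12 to 0.12 for Bcl6b, -0.11 to 0.056 for Trim28, -0.73 to 0.021 for Foxa2, -0.14 to 0.11 for Hsd3b2, -0.29 to 0.046 for Hsd3b7 and -0.23 to 0.14 for Srd5a2. Naming probes by the files' own gene names was not run, as no such column was used here. Signal near background limits A1bg.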
